A study of Mus musculus with 12 samples.

Results

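The effect of lithium on embryonic stem cells that no longer receive LIF was measured by comparing 3 arrays of LIF-free cultures given lithium with 3 arrays of LIF-free cultures without it, paired by replicate number. These are 6 of the 12 Affymetrix mouse arrays in the series, chosen by their titles. All cultures were of the mouse embryonic stem cell line D3, held for 7 days in stem cell medium with 15% serum. The LIF-free cultures received neither LIF nor lithium, and the LIF-free plus lithium cultures received lithium, which the labels give as 50 nM. The other 6 arrays are of LIF cultures (1000 units per ml) without lithium and of LIF plus lithium cultures, and serve here as reference points. The labels call the arrays biological replicates 1 to 3 but do not say whether equal numbers stand for cells grown together. The series text mentions 3 independent experiments behind a replicate without saying whether their RNA was pooled, so the p-values cover the spread between these arrays.

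LIF binds a receptor that contains gp130 and activates the transcription factor STAT3, which keeps serum-grown mouse embryonic stem cells self-renewing. Without LIF such cells lose naive pluripotency factors and pass through an epiblast-like state into streak, mesoderm, endoderm and other fates. Lithium inhibits the kinase GSK3, which otherwise marks beta-catenin for breakdown, and it also inhibits inositol monophosphatase. Stabilised beta-catenin acts through TCF and LEF factors on targets such as Axin2, and its relief of TCF7L1 repression supports pluripotency genes. The lithium comparison therefore asks whether loss of the pluripotent state was held back, or its outcome redirected, and which effect sizes the arrays can exclude. Lithium is usually used at millimolar concentrations.

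No gene of pluripotency or of differentiation passed the test when lithium was added to LIF-free cultures. Values are MAS5 signals, a linear brightness per probe set scaled to one target on each array, and changes are differences of log2 signal, so that 1 unit is a 2-fold change. Of 27022 probe sets bright enough to test, limma with the replicate number as a block called 0 higher (0%) and 0 lower (0%) with lithium at an adjusted p under 0.05. The smallest adjusted p was 0.9996. An unadjusted p under 0.05 was reached by 824 probe sets (3.05%) and, without the block, by 347 (1.28%), with 0 called there too. By named gene, 179 (1.41%) reached it with a higher and 102 (0.801%) with a lower signal. Lithium in the presence of LIF gave 0 calls and 1567 probe sets (5.8%) at that unadjusted level, 265 higher and 1302 lower. Fitting only the 6 arrays called 1 probe set, one for Jpt1 of a class that can cross-hybridise, described further on. The interaction, which tests whether lithium acted differently without LIF than with it, also called 0 probe sets, with 1604 at an unadjusted p under 0.05 (666 without the block). In 1357 of the 1604 the lithium change was higher without LIF than with it, and in 247 it was lower.

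The block rests on a check of the arrays themselves, and the intervals below are from the fit with it unless stated. Residuals of same-numbered LIF-free arrays with and without lithium correlated across probe sets at 0.46, 0.11 and 0.30 for replicates 1, 2 and 3. The log2 signals of such pairs correlated at 0.959 to 0.965, beside 0.925 to 0.968 between both conditions for different numbers, 0.932 to 0.963 among the LIF-free arrays and 0.931 to 0.958 among those with lithium. The Gapdh 3 prime to 5 prime signal ratio, a sign of RNA integrity, ran from 0.739 to 0.800 without lithium and from 0.748 to 0.802 with it. The 18S signal ran from 1007 to 1461 and from 374 to 1632. Summed signals of 14 fibroblast and feeder genes ran from 2814 to 5104 without lithium and 2682 to 5073 with it, and those of 11 endothelium and blood genes from 252 to 373 and from 274 to 363. None of these ranges separated the conditions.

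Axin2, which scaffolds beta-catenin breakdown and is the standard readout of Wnt signalling, had signals of 73.0, 53.3 and 56.8 in the LIF-free replicates 1, 2 and 3. With lithium they were 69.0, 107.9 and 50.7. Replicate 2 was higher with lithium, the other two were slightly lower, and the conditions overlapped. The log2 change was 0.26 with a 95% interval from -0.37 to 0.88 (adjusted p = 0.9996, limma), so a 2-fold rise of the average lay outside the interval. Without the block the interval reached 1.07. LIF withdrawal itself had raised Axin2 from a LIF mean of 23.1 ± 8.76 (SD, n = 3) by 1.45 log2 units (adjusted p = 0.00344 in limma, 0.0300 without the block).

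Tet2, a dioxygenase that oxidises methylcytosine and is high in naive embryonic stem cells, had LIF-free signals of 67.6, 45.3 and 38.2. With lithium the signals were 73.5, 67.3 and 76.8. Every pair was higher with lithium, although LIF-free replicate 1 reached the lithium range. The log2 change was 0.57 (0.17 to 0.96), its unadjusted p in limma was 0.00827 and its adjusted p 0.9996. A second Tet2 probe set changed by 0.17 (-0.31 to 0.65). On withdrawal Tet2 had fallen from a LIF mean of 205 (log2 change -2.05), and with lithium it was still lower than with LIF (log2 change -1.49, adjusted p = 0.000145 in limma, 0.00203 without the block). With LIF present the lithium change was -0.28, and the difference between both lithium effects was 0.85 (adjusted p = 0.806, limma).

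Nanog, a core factor of the naive state, had LIF-free signals of 679, 958 and 1120, and 431, 833 and 1181 with lithium. It was lower in replicates 1 and 2 and higher in replicate 3, and the ranges overlapped. Its log2 change was -0.26 (-0.61 to 0.09). The upper bound was a rise of 0.09, and of 0.39 without the block. The LIF mean was 1615 ± 250 (SD, n = 3), and withdrawal had lowered Nanog by a log2 change of -0.83 (adjusted p = 0.00302 in limma, and 0.105 without the block, above the threshold).

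**Figure D1:**
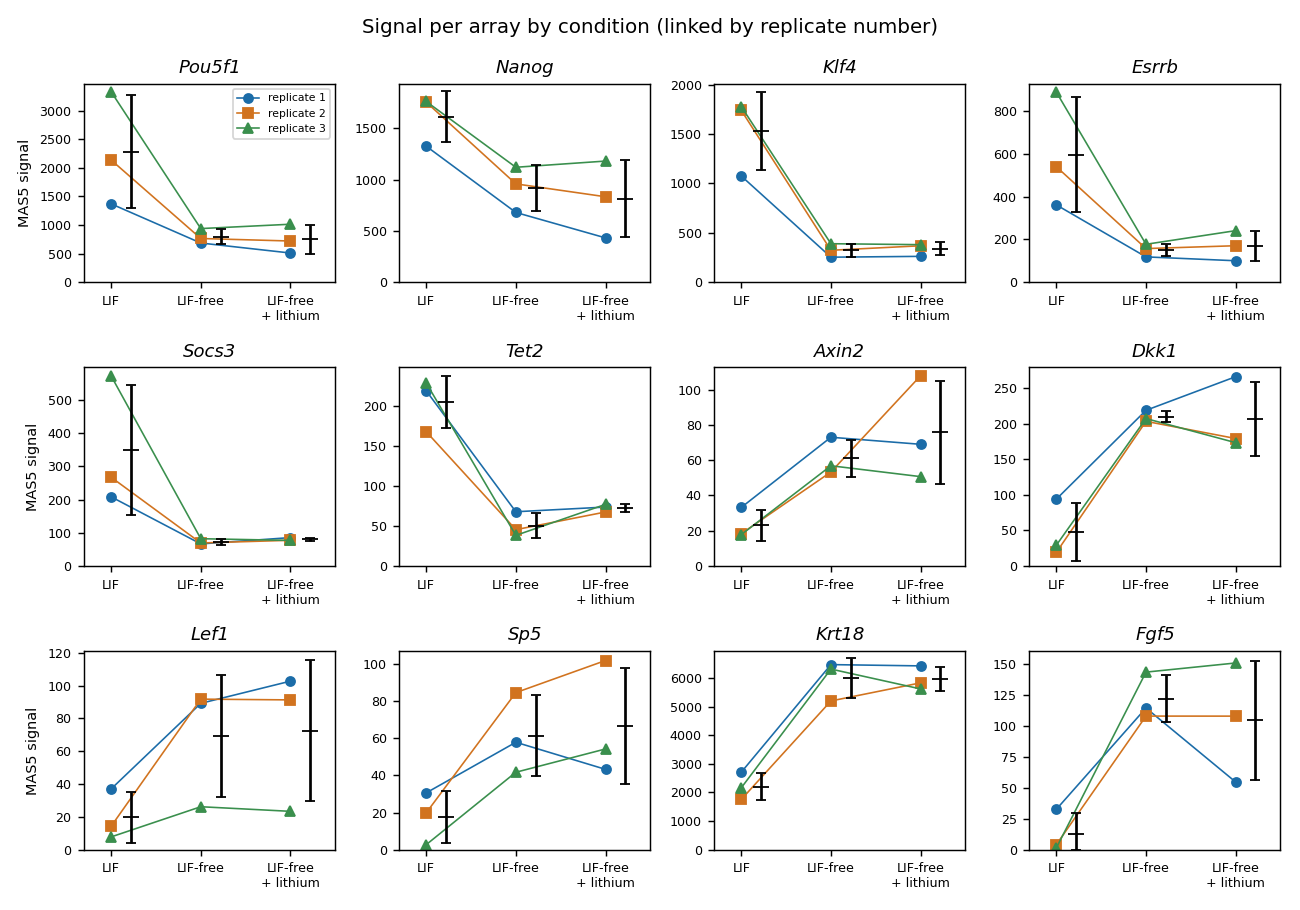
MAS5 signal (linear axis from 0) of single genes in LIF, LIF-free and LIF-free plus lithium cultures, 1 line per replicate number, with the mean and SD (n = 3) beside the points. Axin2, Tet2 and Nanog move between LIF and LIF-free in all 3 replicates, whereas the step from LIF-free to LIF-free plus lithium overlaps, as for Nanog with 679, 958 and 1120 against 431, 833 and 1181.

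The molecules lithium acts on were measured as transcripts. Gsk3b, one of the 2 GSK3 kinases, had signals of 353, 394 and 197 in LIF-free cultures and 374, 462 and 333 with lithium. It was higher in every pair, most in replicate 3, and the log2 change was 0.35 (-0.04 to 0.75). The gene has 6 tested probe sets, and all 6 had positive changes, from 0.17 to 0.49, with no interval that excluded 0. Impa1, the lithium-sensitive inositol monophosphatase, had signals of 578, 524 and 492 without lithium and 486, 507 and 515 with it, a log2 change of -0.08 (-0.41 to 0.25). Among 20 measured genes of GSK3, its destruction complex and the TCF factors, 0 passed the test, the median change was 0.01 beside 0.01 over all 12737 named genes, and 19 had an interval between -1 and 1. Apc2, a dim homologue of Apc, was the exception, with bounds of -1.89 and 1.33. Apc itself, the scaffold that holds beta-catenin in the complex, changed by 0.18 (-0.15 to 0.50), Bcl9, a beta-catenin co-activator, by 0.34 (-0.16 to 0.85) and Tle3, a TCF co-repressor, by 0.26 (-0.23 to 0.75). In the list of 14 lithium-sensitive enzymes and genes of inositol supply, 0 passed, the median was 0.06 and 11 intervals lay between -1 and 1. Plcb1, a phospholipase that releases inositol phosphates, had the widest upper bound there (2.48) from signals of 2.09 to 23.0.

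TCF and LEF factors recognise a short motif, and the starts of 2 Wnt targets that hold it are shown because these genes read the pathway that lithium is meant to engage. The 250 bases before the RefSeq start site (build GRCm38.p6) follow, 5′ to 3′ on the strand of the gene, with the motif in capitals. Dkk1 encodes a secreted Wnt antagonist (chr19:30549497-30549746, minus strand), and Sp5 a zinc finger factor induced by Wnt and STAT3 signals (chr2:70474673-70474922, plus strand).
Dkk1: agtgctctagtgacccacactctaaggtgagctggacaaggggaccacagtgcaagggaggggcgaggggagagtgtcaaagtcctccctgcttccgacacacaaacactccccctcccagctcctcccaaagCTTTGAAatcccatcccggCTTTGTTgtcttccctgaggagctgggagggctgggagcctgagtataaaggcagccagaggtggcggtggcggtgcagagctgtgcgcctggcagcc
Sp5: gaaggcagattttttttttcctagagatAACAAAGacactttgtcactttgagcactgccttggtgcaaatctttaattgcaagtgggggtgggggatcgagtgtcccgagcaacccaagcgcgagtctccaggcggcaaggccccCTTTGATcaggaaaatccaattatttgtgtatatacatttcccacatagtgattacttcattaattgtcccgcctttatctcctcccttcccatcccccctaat
The letters searched were CTTTG followed by AA, TT, AT or TA, on both strands, in windows of 300 bases that reach 50 bases past the start. Dkk1 has matches that begin 117 and 98 bases before its start, and Sp5 has matches 222 and 104 bases before it, the first of them on the opposite strand. Of the 20 measured Wnt targets, 13 were in the RefSeq table, and 4 of them (30.8%) had a match in a window: Dkk1, Sp5, Lef1 and Tnfrsf19. Lef1 and Tnfrsf19 have several windows, not all with a match, and the Axin2 window had none. Of 26994 genes in the table, 5117 (19%) had one. By window, 4 of 18 windows of the measured Wnt targets (22.2%) held a match, beside 5540 of all 32817 (16.9%). A match describes letters and is no evidence of binding.

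Dkk1 had signals of 219, 203 and 207 without lithium and 266, 179 and 173 with it. Replicate 1 was higher and both others lower, for a log2 change of -0.05 (-0.74 to 0.64). A second, dimmer Dkk1 probe set changed by 0.22 (-0.91 to 1.34). Sp5 had 57.9, 84.6 and 41.7 without lithium and 43.3, 101.9 and 54.3 with it, a log2 change of 0.08 with the wide interval of -1.06 to 1.21. Lef1, a nuclear partner of beta-catenin and its own target, was low in replicate 3 of both conditions. Its signals were 89.2, 91.8 and 26.2 without lithium and 102.7, 91.3 and 23.4 with it (log2 change 0.01, -0.68 to 0.70). That interval widened to -1.57 to 1.59 without the block. Cdx2, a caudal homeobox target, changed by 0.17 (-0.65 to 0.98, and up to 1.24 without the block). Ccnd1, the cyclin D1 gene, was slightly higher in each pair, with 278, 375 and 223 against 279, 412 and 252, a change of 0.11 (-0.21 to 0.42). Both other Ccnd1 probe sets had the opposite sign, with changes of -0.08 (-0.40 to 0.24) and -0.11 (-0.39 to 0.18).

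Of 27 listed Wnt and beta-catenin targets, 25 were on the array, 20 were bright enough to measure and 0 passed the lithium test. Against LIF, 9 of the 20 were higher and 0 lower in LIF-free cultures (4 and 0 without the block). In LIF-free plus lithium cultures 9 were higher and 0 lower (5 and 0 without the block). Of all named genes, 13% and 13.2% were higher in these comparisons. The median lithium change was 0.04, the pair medians were 0.08, 0.15 and -0.16, and 12 of the 20 intervals lay between -1 and 1, beside 9913 of 12737 (77.8%) over all named genes. In 3 members all lithium values lay above all LIF-free values, where 447 of 12737 genes (3.51%) did so. Rnf43, a membrane ligase that removes Wnt receptors, had 10.7, 10.5 and 10.8 without lithium and 15.1, 19.2 and 15.2 with it, close to the lowest signal tested, 7.52. Its log2 change of 0.62 had an interval from -1.01 to 2.26. Nkd1, a feedback inhibitor that binds Dishevelled, had 21.6, 14.9 and 15.9 against 33.4, 26.5 and 21.9 (log2 change 0.64, -0.52 to 1.80). All other tested Nkd1 probe sets, at similar signals, had the opposite sign, with changes of -0.08, -0.41 and -0.50. Tnfrsf19, a TNF receptor family member, had 194, 185 and 179 against 199, 206 and 196, a change of 0.11. Nkd2, a paralogue of Nkd1, had the lowest estimate of the list (-1.09, -2.39 to 0.21), while other Nkd2 probe sets gave 1.17 (-0.21 to 2.55) and -0.03. Znrf3, a paralogue of Rnf43, changed by 0.20 (-0.20 to 0.60). These 5 genes were named after their values were seen or for having the smallest p of the list, and none passed the adjusted test.

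Signals of the core pluripotency genes overlapped between LIF-free cultures with and without lithium. Pou5f1, which encodes OCT4, had signals of 685, 764 and 938 without lithium and 509, 720 and 1014 with it. Replicates 1 and 2 were lower and replicate 3 higher, and the log2 change was -0.13 (-0.45 to 0.18). Sox2, the partner of OCT4, had 1034, 1362 and 1621 against 800, 1341 and 1912 (log2 change -0.05, -0.40 to 0.29). Zfp42, also called Rex1 and a marker of the naive state, had 1406, 1191 and 1461 against 925, 981 and 1555 (log2 change -0.27, -0.58 to 0.05). In all 3 genes the lithium array was lowest against its partner in replicate 1 and highest in replicate 3.

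Klf4 and Esrrb combined a large fall on withdrawal with a lithium interval around 0 that was narrow with the block and wider without it. Klf4, a naive factor controlled by STAT3, had signals of 252, 322 and 389 without lithium and 261, 368 and 379 with it, values that interleave. Its lithium change was 0.07 (-0.17 to 0.31, and -0.44 to 0.57 without the block). Withdrawal had lowered Klf4 from a LIF mean of 1531 by a log2 change of -2.24 (adjusted p = 4.5e-07, limma). Esrrb, a nuclear receptor and target of TCF7L1 repression, had 118, 157 and 177 against 100, 170 and 241. Its lithium change was 0.11 (-0.27 to 0.49, and -0.62 to 0.83 without the block) beside a withdrawal change of -1.91 (adjusted p = 2.4e-05, limma). Both other Esrrb probe sets, which were dimmer, changed by -0.16 (-0.66 to 0.34) and -0.23 (-1.04 to 0.58). Fgf4, the autocrine growth factor that drives exit from self-renewal, changed by -0.09 with lithium and by -2.13 on withdrawal.

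Of 32 genes in the pluripotency list, all measured, 0 passed the lithium test in either direction and all 32 intervals lay between -1 and 1. The median change was -0.05, and members ran from -0.30 for Prdm14, a repressor of FGF signalling, to 0.57 for Tet2. The widest bounds were -0.86 for Dppa3, a gene of naive cells and the oocyte, and 0.96 for Tet2. That all 32 intervals lay between -1 and 1 held with the block. In the fit without it, those of Tet2 (0.11 to 1.02) and Prdm14 (-1.04 to 0.45) left that range. A smaller margin, 1.5-fold either way, held 23 of the 32 intervals with the block. The same list fell on withdrawal: against LIF, 26 of 32 were lower and 0 higher in LIF-free cultures, where 11% of named genes were lower (20 of 32 without the block). Against LIF, 26 were also lower and 0 higher in LIF-free plus lithium cultures, where 10.5% of named genes were lower (23 without the block, and 1 higher under quantile normalisation). The medians were -1.11 and -1.20. The equal counts depended on scaling: with each array centred on its median, 18 were lower in LIF-free cultures and 24 in LIF-free plus lithium cultures. Both comparisons share the LIF arrays, so they are set side by side only.

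The pairs of the pluripotency list differed more than its median shows. In replicate 1 the lithium array was below its partner for 25 of 32 members (78.1%), beside 6058 of 12737 named genes (47.6%). The numbers of lower members were 12 in replicate 2 and 7 in replicate 3, beside 5829 and 6499 of all named genes. The medians of the list in the 3 pairs were -0.34, 0.07 and 0.12, while those of all named genes were 0.02, 0.03 and -0.01. Replicate 1 also had lower medians for primed epiblast genes (-0.41), streak genes (-0.42) and germ cell genes (-0.36), whose values in replicate 3 were -0.02, -0.20 and 0.09. Replicate numbers have no order, and a single pair has no replicate of its own, so these are descriptions of 3 pairs of arrays.

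**Figure D2:**
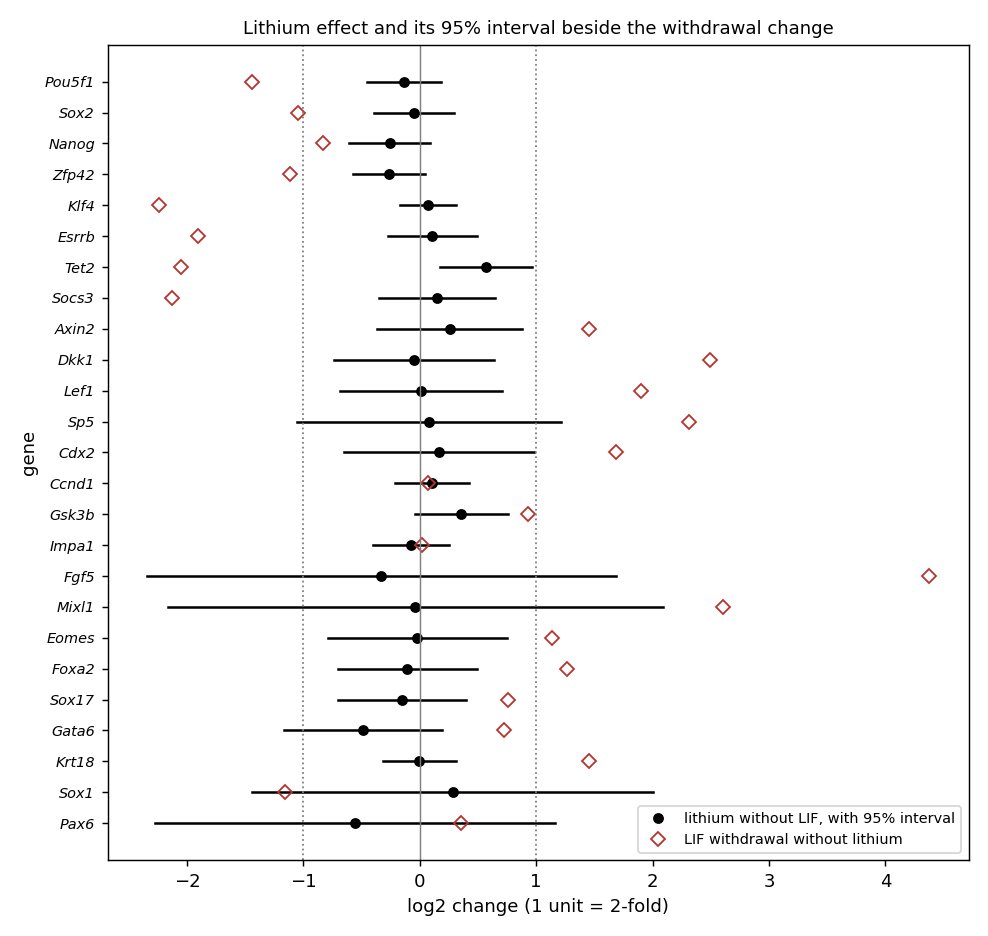
Log2 change (1 unit = 2-fold) of 25 named genes, 1 row per gene. Black points with bars are the lithium change without LIF and its 95% interval, and open diamonds are the withdrawal change without lithium. The bar of Klf4 spans -0.17 to 0.31 while its diamond lies at -2.24. The bars of Mixl1, Fgf5, Sox1, Pax6 and Sp5 reach past 1 unit on both sides of 0. All bars are from the fit with the block.

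The LIF receptor and the targets of STAT3 read the signal that had been removed. Socs3, the feedback inhibitor that STAT3 induces, had LIF-free signals of 66.5, 69.3 and 82.2 and 85.5, 77.4 and 77.1 with lithium (log2 change 0.14, -0.35 to 0.64). It had fallen on withdrawal (log2 change -2.13, adjusted p = 6.7e-05, limma). Both other Socs3 probe sets, which can cross-hybridise, had changes of -0.34 (-0.66 to -0.02) and -0.14, so the sets differed in sign. Cish, a second STAT-induced inhibitor, had 33.0, 52.8 and 63.6 against 71.0, 79.3 and 58.1 (log2 change 0.52, upper bound 1.05). Il6st, which encodes gp130, changed by 0.19 (-0.11 to 0.49) and Pim3, a survival kinase, by -0.21 (-0.61 to 0.19). Egr1, an immediate early gene, had 98.3, 405 and 62.4 against 104, 638 and 67.8, so it differed more between replicate numbers than between the conditions (log2 change 0.29, -0.15 to 0.73). Its interval was -1.87 to 2.45 without the block. Of 22 measured members 0 passed, the median was 0.05, and with the block 20 intervals lay between -1 and 1, all but those of Cish and Sp5. Against LIF, 10 of the 22 were lower and 1 higher in LIF-free cultures (7 and 0 without the block), and 9 lower and 2 higher in LIF-free plus lithium cultures (8 and 0 without the block). Over all named genes 11% were lower and 13% higher in the former comparison, and 10.5% and 13.2% in the latter.

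Genes of the primed epiblast mark the state that cells enter when the naive one is lost. Fgf5, a fibroblast growth factor that marks the primed state, had signals of 114, 108 and 143 in LIF-free cultures and 54.6, 108 and 150 with lithium. Replicate 1 was lower with lithium and the others were close to their partners. The change of -0.33 had an interval from -2.35 to 1.68, which holds a 2-fold change in either direction. Nodal, the TGF-beta family ligand that maintains the epiblast and patterns the streak, had 197, 217 and 264 without lithium and 148, 170 and 202 with it. It was lower in every pair, with overlap through replicate 3 of the lithium arrays, and its change was -0.38 (-0.68 to -0.08; unadjusted p = 0.0163 in limma, adjusted 0.9996). Without the block that interval included 0. A second, dimmer Nodal probe set changed by -0.02 (-0.55 to 0.51). Lefty2, a Nodal antagonist and target, had 39.0, 33.6 and 33.2 against 22.9, 25.3 and 30.3, and every lithium value lay below every LIF-free value. Its change of -0.44 had an interval from -0.92 to 0.04. Wnt8a, a posterior Wnt ligand, had 14.7, 17.3 and 18.2 against 4.33, 9.33 and 14.3, also without overlap, at signals near background (-1.0, -2.42 to 0.42).

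In the primed epiblast list of 18 measured genes, 0 passed, the median change was -0.09, and 14 intervals lay between -1 and 1. Lefty2 and Wnt8a were its 2 members without overlap, both lower, where 338 of 12737 genes (2.65%) were. In all 3 pairs, 5 of 18 members were lower, beside 1411 of 12737 genes (11.1%), and 2 were higher, beside 1729 (13.6%). Against LIF, 7 rose and 3 fell in LIF-free cultures (5 and 2 without the block), and 7 rose and 3 fell in LIF-free plus lithium cultures (4 and 2 without the block), where 13% and 13.2% of named genes rose.

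Among genes of the primitive streak and definitive endoderm, Mixl1 and Eomes varied strongly by replicate number. Mixl1, a homeobox gene of the streak, had 44.3, 172 and 10.5 in LIF-free cultures and 24.7, 150 and 19.8 with lithium. Replicate 2 was high in both conditions, and the change of -0.04 had an interval from -2.17 to 2.09. Eomes, a T-box factor of streak and trophoblast, had 131, 209 and 57.6 against 109, 181 and 76.6 (log2 change -0.02, -0.79 to 0.75). Foxa2, a forkhead factor of endoderm and node, had 61.2, 64.8 and 44.3 against 44.1, 62.5 and 50.7 (log2 change -0.11, -0.71 to 0.49). Sox17, an endoderm factor, changed by -0.15 (-0.70 to 0.39) and Mesp1, the mesoderm factor, by -0.37 (-1.18 to 0.43). Of 16 measured members 0 passed, the median was -0.15, the lowest of the 19 lists, and 7 intervals lay between -1 and 1. On withdrawal 8 rose and 2 fell (5 and 2 without the block), where 13% of named genes rose and 11% fell. Against LIF, 6 rose and 2 fell in the lithium cultures (4 and 2 without the block), where 13.2% and 10.5% of named genes did. Brachyury was not analysed here.

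No gene of heart, lateral mesoderm or blood passed the lithium test. Among 23 measured genes of cardiac and lateral mesoderm 0 passed, the median was 0.04 and 12 intervals lay between -1 and 1. Myh7, a cardiac myosin heavy chain, had 23.4, 4.16 and 16.3 without lithium and 28.3, 52.2 and 25.5 with it, with no overlap (log2 change 1.52, 0.09 to 2.96; unadjusted p = 0.0393 in limma). Its level was low, and without the block its interval included 0. Myh6, the other cardiac heavy chain (0.65, -0.48 to 1.78), Nkx2-5, the cardiac homeobox factor (0.69, -0.51 to 1.90) and Myl7, an atrial light chain (-0.43, -1.20 to 0.34) had intervals that included 0 with the block too. In 11 genes of endothelium and blood the median was 0.12 and 5 intervals lay between -1 and 1. Hbb-bh1, an embryonic haemoglobin chain, had 61.3, 46.1 and 11.8 against 36.8, 8.89 and 5.11, lower in every pair (log2 change -1.44, -2.98 to 0.11). Runx1, a blood transcription factor, was higher in every pair (0.79, -0.09 to 1.68).

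Endoderm, neural and trophoblast genes showed no shift past the test. Gata6, which directs primitive endoderm, had 165, 133 and 92.7 without lithium and 118, 103 and 60.8 with it. Every pair was lower with lithium, and the change was -0.49 (-1.17 to 0.19). A second, dimmer Gata6 probe set had the opposite sign (0.11, -0.74 to 0.97). Apoa2, an apolipoprotein of visceral endoderm, lay near background at 1.85, 3.33 and 11.3 against 8.51, 24.9 and 10.5 (log2 change 1.67, 0.33 to 3.02; unadjusted p = 0.0186 in limma). Lama1, a basement membrane laminin, changed by -0.38 (-0.89 to 0.14). The 24 endoderm genes had a median of -0.04 and 18 intervals between -1 and 1. Of 25 neural genes 24 were on the array and only 13 were bright enough to measure. Sox1 and Pax6, neural plate factors, had intervals from -1.44 to 2.0 and from -2.27 to 1.16. The median change of the 13 was 0.07 and 6 intervals lay between -1 and 1. Krt18, a keratin of simple epithelium and trophoblast, had 6465, 5196 and 6309 against 6421, 5828 and 5616, a change of 0.00 (-0.32 to 0.31) beside a rise of 1.45 on withdrawal. Of 17 trophoblast genes, 13 rose on withdrawal (8 without the block) and 14 were higher than LIF in the lithium cultures (11 without the block), where 13% and 13.2% of named genes did. Of the 17, 0 passed the lithium test with a median of 0.02, and 16 intervals lay between -1 and 1. Gata3, a trophoblast zinc finger factor, was the exception, with an upper bound of 1.06. Plac1, a placental gene, had risen by 2.85 and changed by -0.20 (-0.78 to 0.38) with lithium.

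**Figure D3:**
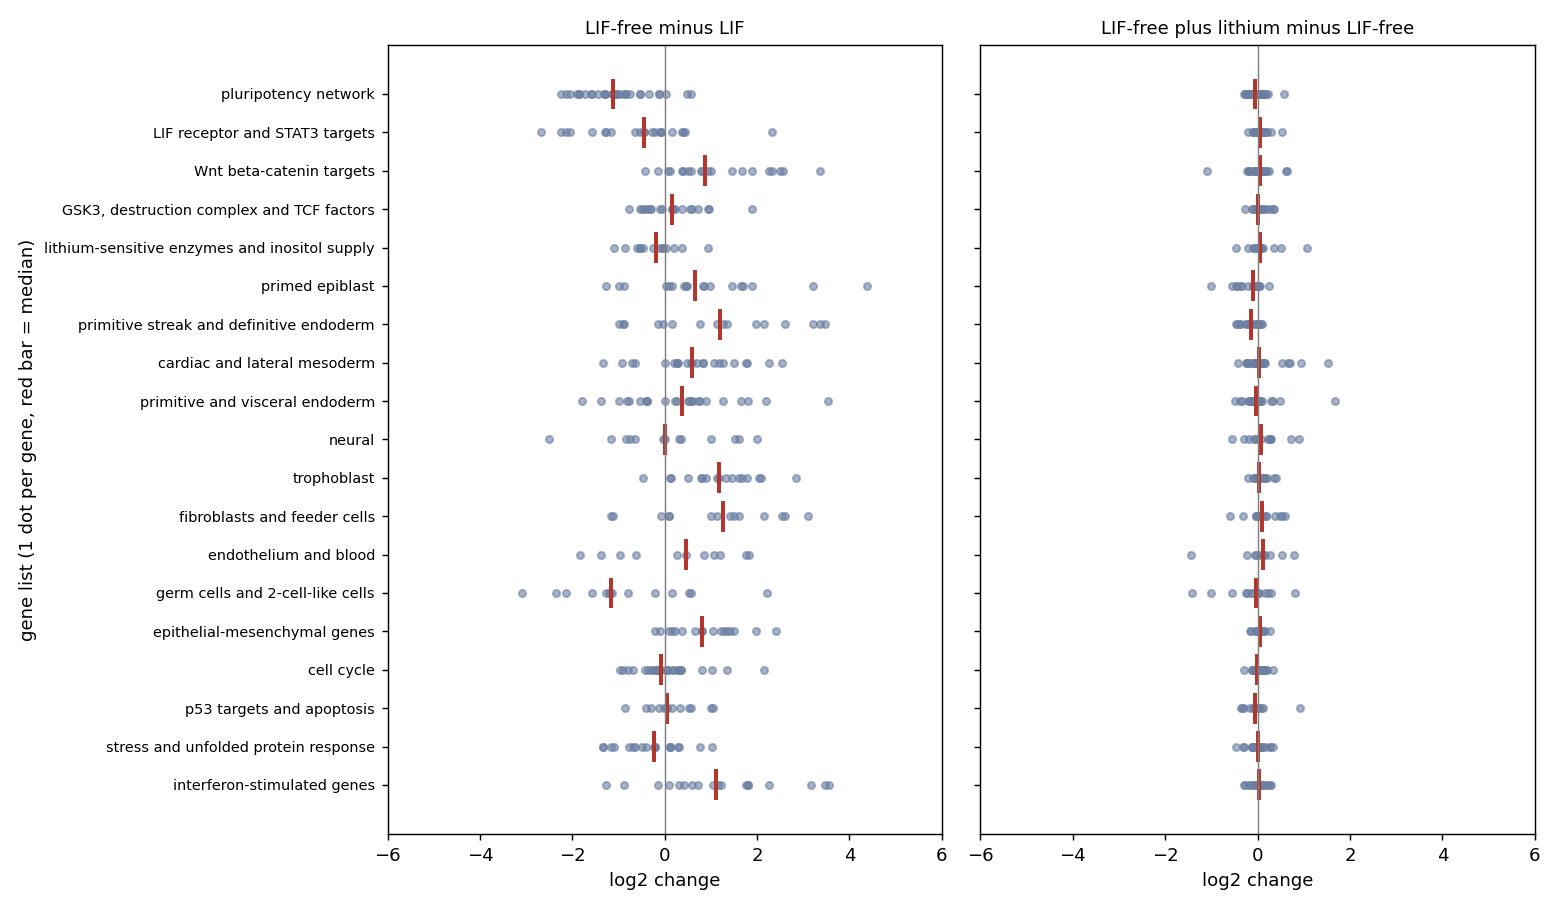
Log2 change of every measured member of the gene lists (1 dot per gene, red bar at the median), on the left for LIF-free minus LIF and on the right for LIF-free plus lithium minus LIF-free. The pluripotency median is -1.11 on the left and -0.05 on the right, and the medians of the right panel all lie between -0.15 and 0.12.

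The remaining lists were of cell state rather than lineage. All 27 measured cell cycle genes had intervals between -1 and 1, with a median of -0.02. Top2a, the replication-linked topoisomerase, had 2556, 2230 and 2234 against 2807, 2610 and 2704, a separation without overlap whose change was 0.21 (-0.03 to 0.45). Mki67, the proliferation antigen, changed by 0.19 (-0.05 to 0.42). Cdkn1a, the p21 cell cycle inhibitor, had 538, 430 and 476 against 413, 405 and 357, all lower with lithium (log2 change -0.29, -0.72 to 0.13). In this list 1 higher and 1 lower member had no overlap, where 3.51% and 2.65% of named genes did. Second probe sets changed by 0.06 (-0.38 to 0.50) for Top2a and -0.11 (-0.67 to 0.44) for Cdkn1a. Of 17 epithelial-mesenchymal genes 12 rose on withdrawal (7 without the block), where 13% of named genes did, and 0 passed with lithium. Their 17 lithium changes lay between -0.16 and 0.26, with a median of 0.05. Epcam, an epithelial adhesion protein, changed by 0.11 (-0.21 to 0.42). Chac1, a glutathione-degrading enzyme of the ATF4 stress response, had 30.5, 54.4 and 50.8 against 31.5, 36.5 and 27.2 (log2 change -0.48, -0.92 to -0.03; unadjusted p = 0.0372 in limma), an interval that included 0 without the block. It was the only one of 19 stress genes to reach an unadjusted p under 0.05, and their median was 0.01. In the lists of germ cell, p53, fibroblast and interferon genes (14, 13, 14 and 18 measured), 0 passed, and the medians were -0.04, -0.05, 0.09 and 0.03. In total, 0 members of the 19 lists passed the lithium test.

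Over all named genes, those with the smallest p among the brighter ones, with a mean signal above 25.8 and 3 pairs of one sign, were named by rule, 10 in each direction. The rule leaves out provisional symbols (the suffix Rik, the prefix LOC, or Gm before a digit), here 1 higher and 0 lower genes. The gene left out, 1810058I24Rik, had the smallest p of the higher genes and was added after its values were seen. Its signals were 612, 574 and 646 without lithium and 1322, 1081 and 882 with it, no overlap, for a log2 change of 0.82 (0.49 to 1.15; unadjusted p = 0.000109 and adjusted p = 0.9996 in limma). On withdrawal it had fallen (log2 change -0.56, adjusted p = 0.0218 in limma, 0.0394 without the block). A second 1810058I24Rik probe set, with means of 23.7 and 14.1, had the opposite sign (-0.82, -1.61 to -0.02). Every one of the 20 genes named had an adjusted p of 0.9996 in limma, so these are the candidates nearest the threshold and not calls. Zcchc14, a zinc finger gene, came next on the higher side with 121, 116 and 106 without lithium and 201, 195 and 138 with it, no overlap, and a change of 0.62 (0.25 to 0.99). The other 3 Zcchc14 probe sets had changes of 0.24 to 0.87 with intervals that included 0. Mau2, a cohesin loading factor, had 66.6, 72.0 and 58.5 against 103.6, 98.1 and 106 (log2 change 0.65, 0.23 to 1.06), while its other 3 probe sets gave 0.06, 0.08 and -0.23. Baz2a, a subunit of the nucleolar remodelling complex, had 243, 262 and 179 against 329, 346 and 280 (log2 change 0.50, 0.18 to 0.81), and its other 2 gave 0.28 and -0.20. Cdc42bpb, a kinase effector of CDC42, Top1mt, the mitochondrial topoisomerase, Zap70, a kinase of T cell receptor signalling, Cdhr1, a cadherin of photoreceptors, and Mboat1, an acyltransferase, also had no overlap, with changes from 0.60 to 0.89. Zzef1 and Tet2, which is also in the pluripotency list, completed the 10. Without the block the interval of Zzef1 included 0, and its other 2 probe sets gave -0.01 and 0.31.

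On the lower side Rundc3a had 26.2, 39.9 and 54.1 without lithium and 8.93, 18.9 and 35.5 with it. Each pair was lower while the ranges overlapped, and the change was -1.08 (-1.64 to -0.52). Without the block its interval included 0, and a second, dimmer Rundc3a probe set had the opposite sign (1.22, -0.27 to 2.70). Tcf15, a basic helix-loop-helix factor linked to priming of embryonic stem cells, had 79.4, 106 and 116 against 53.1, 59.3 and 81.6 (log2 change -0.64, -1.01 to -0.28). Tcf15 had fallen on withdrawal from a LIF mean of 315 (log2 change -1.63, adjusted p = 5.0e-05, limma). Abhd12, a lysophospholipase, Enho, a secreted peptide gene, Dffb, the caspase-activated nuclease, and Lage3, a subunit of a tRNA-modifying complex, had all lithium values below all LIF-free values. Their changes ran from -0.75 to -0.44. Second probe sets of Abhd12 and Dffb changed by 0.03 (-0.41 to 0.48) and -0.05 (-0.65 to 0.55). Cysrt1, Gng13, Atp5md and Tmem14a were lower in every pair with overlap. Without the block the interval of Tmem14a included 0, and a second Gng13 probe set near background gave 0.27. Over all named genes, 447 (3.51%) had all lithium values above and 338 (2.65%) all below, 6.16% in all, beside 6.5% for lithium in the presence of LIF and 32% for withdrawal.

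The single lithium call in LIF-free cultures under any setting run came from fitting the 6 arrays alone. It was a Jpt1 probe set of the class that can cross-hybridise, picked out after its values were seen. Its signals were 1042, 953 and 1078 without lithium and 424, 305 and 464 with it (log2 change -1.39, adjusted p = 0.000782, limma). On the LIF arrays the same probe set read 1002, 404 and 309, so it spread as widely within a condition there. Both other Jpt1 probe sets changed by -0.08 (-0.31 to 0.15) and -0.01 (-0.29 to 0.28).

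The arrays exclude large changes in bright genes and leave dim ones undecided. The margin from the estimate to a bound of the 95% interval had a median of 0.51 log2 units over the 27022 probe sets. In 4 equal groups by mean signal, from dim to bright, it was 1.13, 0.63, 0.40 and 0.30. The interval lay between -1 and 1 for 7.59%, 71.1%, 98.1% and 99.7% of probe sets in those groups. Over all tested, that held for 18679 probe sets (69.1%), and for 11299 with the narrower margin of 1.5-fold. Pairs of one-sided limma tests against both 2-fold limits, adjusted over all probe sets, placed 19566 within 2-fold, and 10609 within 1.5-fold. These counts fell in the fit without the block, to 16797 intervals (62.2%) inside 2-fold and 8560 inside 1.5-fold. The one-sided tests then placed 17443 within 2-fold and 5881 within 1.5-fold. For the 9732 brighter named genes the share inside 2-fold, with the block, was 96.4% (9377 genes). Of these brighter genes 4 had an estimate beyond 2-fold higher and 4 beyond 2-fold lower, where withdrawal had 518 and 424. Against LIF, LIF-free plus lithium had 553 and 405. These bounds hold for the average of 3 arrays per condition, and they say nothing of changes in a minority of cells.

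**Figure D4:**
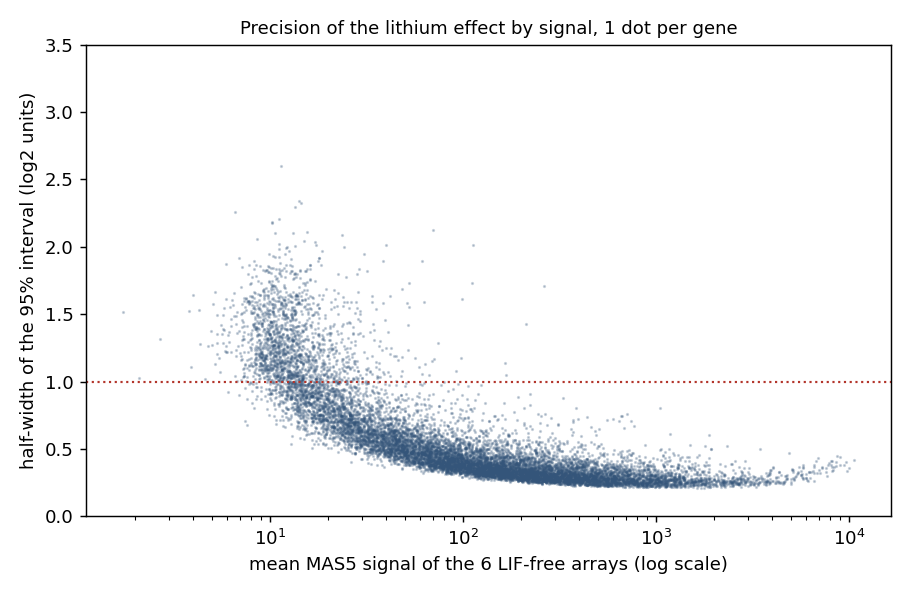
Margin of the 95% interval (log2 units) of the lithium change against the mean MAS5 signal of the 6 LIF-free arrays with and without lithium (log axis), 1 dot for each of 12737 named genes. The margin narrows with signal: its median is 1.13 in the dimmest of 4 equal groups of probe sets and 0.30 in the brightest.

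Set against LIF, both LIF-free conditions gave calls. Withdrawal without lithium called 2714 probe sets higher (10%) and 2546 lower (9.42%), and 2515 in all without the block. LIF-free plus lithium against LIF called 2765 higher (10.2%) and 2308 lower (8.54%), and 2503 in all without the block. For the latter the replicate numbers paired less well, with residual correlations of 0.39, 0.03 and 0.18, so the count without the block stands beside it. Leaving out replicate 2 of every condition lowered these counts to 1315 and 1314. Centring each array on its median moved the share of withdrawal calls that were higher from 51.6% to 73.1%, and that of LIF-free plus lithium from 54.5% to 57.8%. It moved the median lithium change of all probe sets from 0.03 to -0.14, and 0 probe sets were called for lithium under either scaling. In bulk RNA a lower share of cells in a state and less RNA per cell cannot be told apart.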

How the data were processed

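RNA was hybridised to 12 Affymetrix mouse arrays, 3 per condition. The deposited values are intensities, which the authors made as MAS5 signals per probe set on a linear scale, per the submitters' processing notes (no version stated). The number of arrays limits the precision. Here 64 of 45101 probe sets, the Affymetrix controls, were left out, signals under 1 were set to 1 and log2 was taken. The 27022 probe sets with a mean above the 40th percentile (signal 7.52) were tested. Symbols came from the platform annotation, where 34945 probe sets have 1 symbol, 932 several and 9160 none. A gene was represented by its brightest probe set, with _x_at sets, which can cross-hybridise, only where no other existed.

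Using limma 3.58.1 under R 4.3.3, a mean for each condition and a term for each replicate number were estimated from the 12 arrays together by lmFit, and eBayes moderated the spread along intensity, leaving 6 residual degrees of freedom. Tests were two-sided, with Benjamini-Hochberg adjustment over all 27022 probe sets and a threshold of 0.05. Permuting 3 arrays against 3 cannot give a two-sided p under 0.1. The block was used because every residual correlation between same-numbered arrays with and without lithium passed 0.1, although replicate 2 correlated higher (0.16) with another number. The scripts were tested on simulated data. Plots used Python 3.11.15 and matplotlib 3.10.9.

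The members, the 19 gene lists and the naming rule were chosen with earlier results of these data known. Named genes were 26 fixed ones, up to 4 per list with the smallest p, and the 10 higher and 10 lower genes with the smallest p among those with a mean above the 60th percentile (signal 25.8) and 3 pairs of one sign. The latter exclude provisional symbols (suffix Rik, prefix LOC, or Gm before a digit), which left out 1 higher and 0 lower genes. Alternatives were quantile normalisation, median centring, 16 as pseudocount, omitting the filter or raising it to the 60th percentile, no block, only the 6 arrays, no trend, array weights, averaging all probe sets of a gene, and leaving out arrays. Leaving out LIF and LIF plus lithium arrays was chosen after seeing the data.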

Additional observations from a re-analysis of the deposited data

How the results depend on the processing

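With lithium added to LIF-free cultures, 0 probe sets were called under quantile normalisation, median centring, a pseudocount of 16, no filter, the stricter filter, no replicate block, no intensity trend, array weights and each array or replicate number left out. Fitting only the 6 arrays called 1, the Jpt1 set. The interaction called 0 in every fit run. Lithium with LIF called 0 to 3 over the fits that leave out an array, with 3 without LIF plus lithium replicate 1, and 0 elsewhere. The 109 named genes gave 2695 values under alternatives, of which 0 passed the threshold and 88 had the other sign. Their smallest adjusted p was 0.143. The largest list median was 0.36 in size.

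The median margin of the 95% interval, 0.509, became 0.367 with the pseudocount of 16, 1.08 with no filter, 0.395 with the filter at the 60th percentile, 0.626 with no replicate block and 0.434 with only the 6 arrays. It ran from 0.458 to 0.684 when arrays or replicate numbers were left out. The share of intervals inside 2-fold was 62.2% with no replicate block and 57.2% without replicate 2 of every condition. It was 40.5% with no filter and 98.9% with the pseudocount, which shrinks changes of dim probe sets by construction.

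Withdrawal without lithium called 2515 with no replicate block and from 1315 to 5450 when arrays or replicate numbers were left out. It fell below the main count by over 1.5 times without LIF-free replicate 2 (2916), LIF-free replicate 3 (2805), LIF replicate 2 (3375) and replicate 2 throughout. LIF-free plus lithium against LIF called 3111 with median centring, 2503 with no replicate block and from 1314 to 5196 with arrays left out, lowest without replicate 2, and 3017 without LIF-free plus lithium replicate 2 and 3235 without LIF replicate 2. The cause was not tested. Signal limits precision: 7 of 16 streak, 5 of 11 endothelium and blood and 6 of 13 neural intervals lay inside 2-fold.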
